A study of Mus musculus with 15 samples.

Results

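Myc and 9 genes whose products make ribosomes were described across mouse mammary tumors with 0, 1 or 2 floxed copies of Ctnnb1, the gene of beta-catenin. The 10 genes, Myc, Ppan, Ncl, Fbl, Nop56, Nop58, Bop1, Pes1, Wdr12 and Polr1b, were listed by name, and each was read from its brightest transcript cluster, the array's unit for a gene, among clusters annotated to a single gene symbol. Of the 10 genes, 9 had such a cluster, out of 22180 genes on the array with one. Fbl had none, since its cluster also names Tulp4, so Fbl has no value below. All 9 lay above the array median on at least 5 arrays and were among the 14243 genes tested. The genes were listed with earlier results of these tumors in view, and Ppan was put forward with its values in the 3 genotypes known, so its genotype differences are given as a description without a test.

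The 15 tumors arose in ErbB2KI mice, whose mammary tumors are driven by an ErbB2 knock-in allele that all groups carry. Ctnnb1 was deleted in mammary epithelium, and the genotypes were Ctnnb1 fl/fl (HOM), Ctnnb1 fl/wt (HET) and Ctnnb1 wt/wt (WT), with 5 tumors each. Tumors were taken at end burden and flash frozen, and total RNA was hybridised to 1 Affymetrix whole-transcript array per tumor. The sources used here name neither the Cre driver nor the age of the mice. Nor do the labels say that each tumor came from its own mouse, so a p-value here covers only how far these tumors differed among themselves. All values are deposited log2 intensities, in which a difference of 1 is a 2-fold change, and levels of different genes cannot be ranked because each rests on its own probes.

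Ribosomes are built in the nucleolus, where RNA polymerase I transcribes the ribosomal RNA precursor. Small nucleolar RNAs bound to core proteins then guide its chemical modification, and assembly factors fold and cleave it into the 2 subunits. Myc is a transcription factor that binds E-box sequences with its partner Max and is known to drive many genes of RNA polymerase I, of nucleolar assembly and of ribosomal proteins. In mammary tumors it is a well known oncogene and is also one of the genes that beta-catenin and TCF factors can activate.

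Promoters are shown for Pes1 and Ppan because, of the 7 genes with a promoter in the table used, these held the E-box forms searched for, and for Polr1b because its level followed that of Myc most closely below. The sequences are from RefSeq, build GRCm38.p6, on the strand of the gene, from 250 bases before to 50 bases after its annotated start, and capitals mark CACGTG or the variant CACGCG, which reads CGCGTG on the other strand.
Pes1, chr11:3963725-3964024, plus strand: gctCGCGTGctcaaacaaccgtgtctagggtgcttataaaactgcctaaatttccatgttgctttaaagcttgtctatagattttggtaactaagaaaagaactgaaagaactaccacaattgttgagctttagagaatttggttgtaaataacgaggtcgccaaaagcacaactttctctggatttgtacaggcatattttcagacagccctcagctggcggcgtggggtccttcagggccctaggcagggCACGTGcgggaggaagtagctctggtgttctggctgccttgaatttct
Ppan, chr9:20887925-20888224, plus strand: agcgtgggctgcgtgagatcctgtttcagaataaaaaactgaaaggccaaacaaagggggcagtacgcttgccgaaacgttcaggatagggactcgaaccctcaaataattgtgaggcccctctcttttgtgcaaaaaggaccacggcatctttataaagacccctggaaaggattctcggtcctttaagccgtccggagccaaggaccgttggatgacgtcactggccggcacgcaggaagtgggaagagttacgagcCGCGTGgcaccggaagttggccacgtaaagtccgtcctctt
Polr1b, chr2:129100746-129101045, plus strand: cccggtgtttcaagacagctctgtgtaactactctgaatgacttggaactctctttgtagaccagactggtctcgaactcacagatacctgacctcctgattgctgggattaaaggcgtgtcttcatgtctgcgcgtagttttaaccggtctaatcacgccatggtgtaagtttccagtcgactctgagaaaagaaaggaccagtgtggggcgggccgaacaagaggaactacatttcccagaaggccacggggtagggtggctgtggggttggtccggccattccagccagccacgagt

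The canonical E-box CACGTG, searched on both strands, was in the promoter of 1 of the 7 genes, Pes1, where its first base lies at position 3 after the start. Among all genes of the table, 8.09% had a promoter of this length with CACGTG. The variant CACGCG or CGCGTG was in 2 of the 7, against 10.5% of all genes: at position 10 after the start in Ppan and at position -247 from the start in Pes1. Ncl, Nop56, Nop58, Wdr12 and Polr1b held none of these letters in this window. The 2 motifs differ in letters and did not overlap. A match is a description of the sequence and not a measured binding site.

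Array medians lay between 5.54 and 5.73. The targeted gene, Ctnnb1, had log2 values of 11.58, 11.30, 11.36, 11.15 and 12.01 in HOM tumors, 11.66, 11.39, 11.22, 11.63 and 11.60 in HET tumors and 11.71, 12.09, 12.10, 12.08 and 11.22 in WT tumors. The difference was -0.36 in HOM against WT (exact permutation test, two-sided, p = 0.143), -0.34 in HET against WT (exact permutation test, p = 0.0952) and -0.02 in HOM against HET (exact permutation test, p = 0.905). Ctnnb1 was highest among HOM tumors in the tumor labelled HOM 5 and lowest among WT tumors in the tumor labelled WT 5, so both go against their labels. Without both, Ctnnb1 differed by -0.65 in HOM against WT, and without WT 5 by -0.49 in HET against WT. Without HOM 5 it differed by -0.15 in HOM against HET. These 2 tumors were picked by their own Ctnnb1 values, and leaving them out moves the groups apart. The differences without them therefore carry no test. Genotypes below are those of the labels, and the main differences are also given without both tumors. Erbb2, the driver of the model, averaged 11.53 ± 1.04 in HOM, 12.70 ± 0.23 in HET and 11.11 ± 0.88 in WT (SD, n = 5 each). Every HET tumor (12.39 to 12.92) lay above every WT tumor (9.63 to 11.85), as for 0.534% of all genes. The part of Erbb2 level in the differences below was not tested. Epcam, an epithelial adhesion molecule, ranged from 9.31 to 12.31, and Krt8, a luminal keratin, from 11.64 to 12.60. Both lay above the array medians in every tumor, but Epcam was lowest in HET 1, while Krt8 there had 12.04. Averaged over 20 epithelial markers, HET 1 also stood lowest, at 7.64, followed by HET 4 at 9.40. Epcam and Krt8 alone therefore do not show that epithelial content was alike.

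Myc did not differ between genotypes beyond the spread of the tumors. Its log2 values were 10.59, 9.96, 10.16, 10.43 and 10.61 in HOM tumors, 9.94, 9.89, 10.43, 9.53 and 10.26 in HET tumors and 10.39, 10.54, 9.70, 10.68 and 10.36 in WT tumors. The 3 groups overlapped, with the lowest value in HET 4 and the highest in WT 4. Means were 10.35 ± 0.28 in HOM, 10.01 ± 0.35 in HET and 10.33 ± 0.38 in WT (SD, n = 5 each). The difference was 0.02 in HOM against WT (95% interval -0.43 to 0.46), -0.32 in HET against WT (-0.77 to 0.12, limma adjusted p = 0.499) and 0.34 in HOM against HET (-0.11 to 0.79, limma adjusted p = 0.690). In bulk tumor RNA, fewer cells that express a gene and less RNA of it per cell cannot be told apart.

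**Figure D1:**
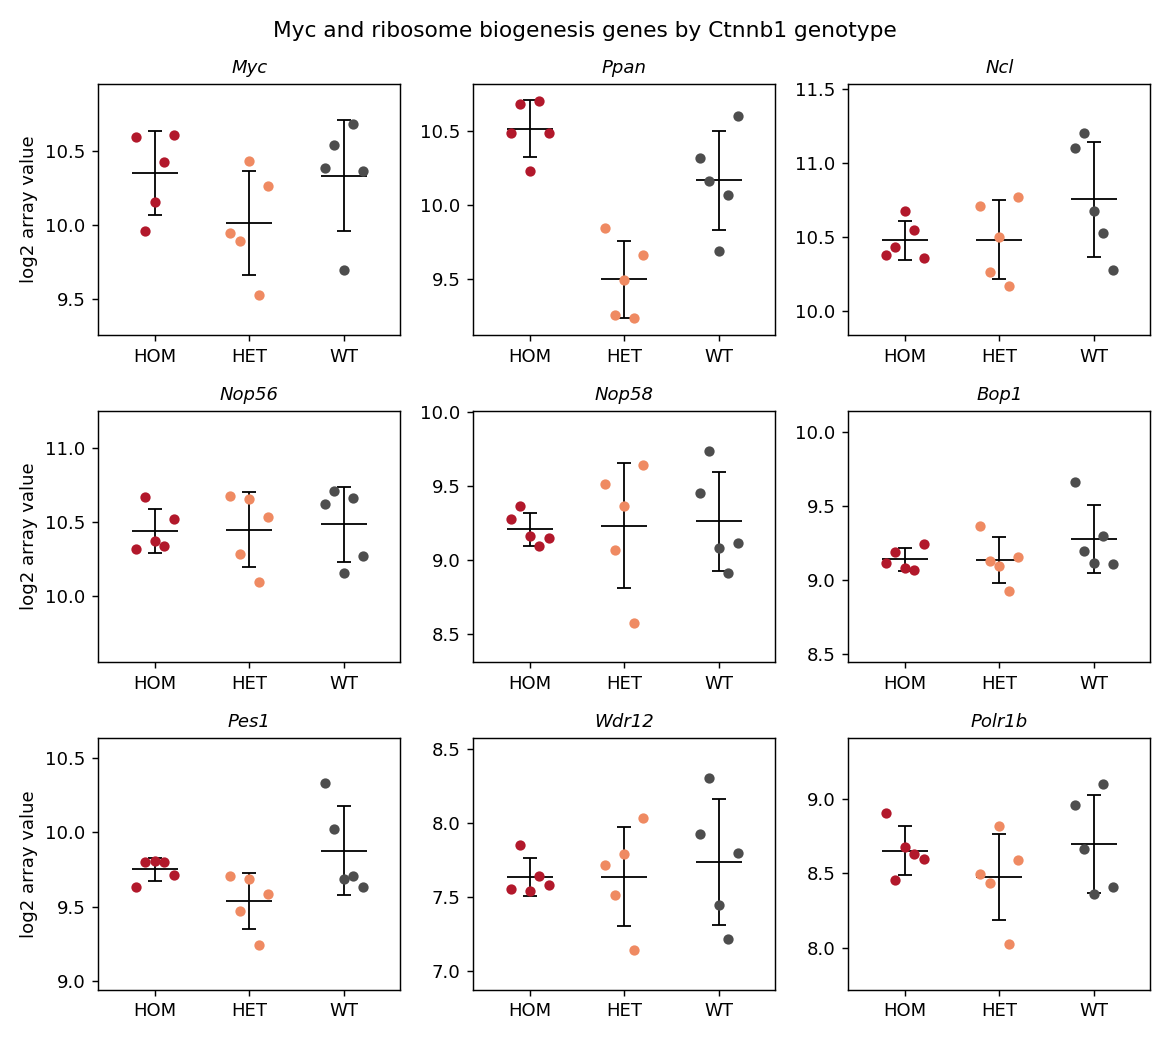
Log2 intensity (vertical axis) of the 9 measured genes in each tumor, with HOM, HET and WT from left to right; points are tumors and bars are group means with SD (n = 5 each). Ppan values of HOM tumors lie at 10.23 to 10.71, above the 9.24 to 9.85 of HET tumors, while the groups of the other 8 genes overlap.

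Polr1b, the second-largest subunit of RNA polymerase I, had log2 values of 8.91, 8.46, 8.68, 8.63 and 8.60 in HOM tumors, 8.50, 8.43, 8.82, 8.02 and 8.59 in HET tumors and 8.96, 8.67, 8.36, 9.11 and 8.41 in WT tumors. WT 4 was highest and HET 4 lowest, the same 2 tumors as for Myc, and the groups overlapped. Means were 8.65 ± 0.16 in HOM, 8.47 ± 0.29 in HET and 8.70 ± 0.33 in WT (SD, n = 5 each). The difference was -0.05 in HOM against WT, -0.23 in HET against WT (limma adjusted p = 0.571) and 0.18 in HOM against HET (limma adjusted p = 0.798).

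Ncl encodes nucleolin, an abundant nucleolar protein that binds ribosomal RNA precursors. Its log2 values were 10.38, 10.43, 10.68, 10.55 and 10.36 in HOM tumors, 10.71, 10.26, 10.50, 10.17 and 10.77 in HET tumors and 11.10, 11.20, 10.67, 10.53 and 10.28 in WT tumors. WT 1 and WT 2 stood above all others, and the remaining WT tumors lay within the range of the floxed tumors. The means of 10.48 ± 0.13 in HOM, 10.48 ± 0.26 in HET and 10.76 ± 0.39 in WT (SD, n = 5 each) did not pass the test (difference of HOM against WT -0.28, and of HET against WT -0.27, limma adjusted p = 0.504).

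Nop56 and Nop58 encode paired core proteins of the box C/D small nucleolar ribonucleoproteins, the particles in which fibrillarin, the product of Fbl, methylates ribosomal RNA. Nop56 averaged 10.44 ± 0.15 in HOM, 10.45 ± 0.25 in HET and 10.48 ± 0.25 in WT tumors (SD, n = 5 each), with all 15 log2 values between 10.09 and 10.71. Its dimmer clusters were not tested, and their groups overlapped. One averaged 7.01 ± 0.56 in HOM, 6.53 ± 0.27 in HET and 6.60 ± 0.34 in WT, with differences of 0.48 in HOM against HET and 0.42 in HOM against WT. The other averaged 5.27 ± 0.36 in HOM, 5.02 ± 0.59 in HET and 5.42 ± 0.67 in WT. Nop58 had log2 values of 9.27, 9.37, 9.16, 9.09 and 9.15 in HOM tumors, 9.51, 9.07, 9.36, 8.58 and 9.64 in HET tumors and 9.45, 9.74, 9.08, 8.91 and 9.12 in WT tumors. The HOM tumors were the closest together, with an SD of 0.11 against 0.42 in HET and 0.33 in WT, and the largest difference between genotypes was -0.05. Neither gene was called in any comparison.

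Pes1, Bop1 and Wdr12 encode the 3 proteins of the PeBoW complex, which is needed to process the RNA of the large ribosomal subunit. Pes1 had log2 values of 9.63, 9.80, 9.81, 9.80 and 9.71 in HOM tumors, 9.71, 9.47, 9.69, 9.24 and 9.59 in HET tumors and 10.34, 10.02, 9.69, 9.71 and 9.63 in WT tumors. WT 1 and WT 2 were again highest and HET 4 lowest. Its difference of -0.34 in HET against WT (95% interval -0.64 to -0.04) had an unadjusted p of 0.029 and a limma adjusted p of 0.322, so it did not pass. Bop1 averaged 9.14 ± 0.07 in HOM, 9.13 ± 0.16 in HET and 9.28 ± 0.23 in WT tumors (SD, n = 5 each). Wdr12 averaged 7.64 ± 0.13 in HOM, 7.64 ± 0.33 in HET and 7.74 ± 0.42 in WT tumors (SD, n = 5 each). The groups of both genes overlapped, and the largest difference of either was -0.14.

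Across these 8 genes without Ppan, 0 were called in HOM against WT, 0 in HET against WT and 0 in HOM against HET at a limma adjusted p below 0.05. Of all genes tested, 0.0%, 0.014% and 0.0% were called in the same comparisons. At an unadjusted p below 0.05, 0 of the 8 genes passed in HOM against WT, 1 in HET against WT and 0 in HOM against HET, against 1.7%, 13.4% and 7.93% of all genes. None of the 8 had groups that did not overlap. Of all genes, 0.112% lay wholly higher and 0.169% wholly lower in HOM against WT, 0.534% higher and 1.05% lower in HET against WT, and 0.611% higher and 0.414% lower in HOM against HET. In HET against WT all 8 differences were below 0, with a median of -0.18 against -0.03 over all genes tested. Counted with Ppan, all 9 were below 0, but 3 of the 9 lay above 0 without HET 4 and 3 without WT 2. In HOM against WT 7 of the 8 were below 0 (median -0.08, all genes -0.01), and in HOM against HET 4 were above and 4 below 0. Counted with Ppan, the 9 genes in HOM against WT had 2 above and 7 below 0, which turned to 5 and 4 without WT 2. In HOM against HET, 5 of the 9 were above 0, against 9 without HET 1, 9 without HET 5 and 4 without HET 4. Without HOM 5 and WT 5, 1 of the 9 was above 0 in HOM against WT, 0 in HET against WT and 6 in HOM against HET, and the difference of HET against WT was -0.40 for Pes1, -0.31 for Myc and -0.30 for Polr1b. Comparisons with WT share the WT tumors, among which WT 1 and WT 2 held the 2 highest values of Ncl and Pes1.

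**Figure D2:**
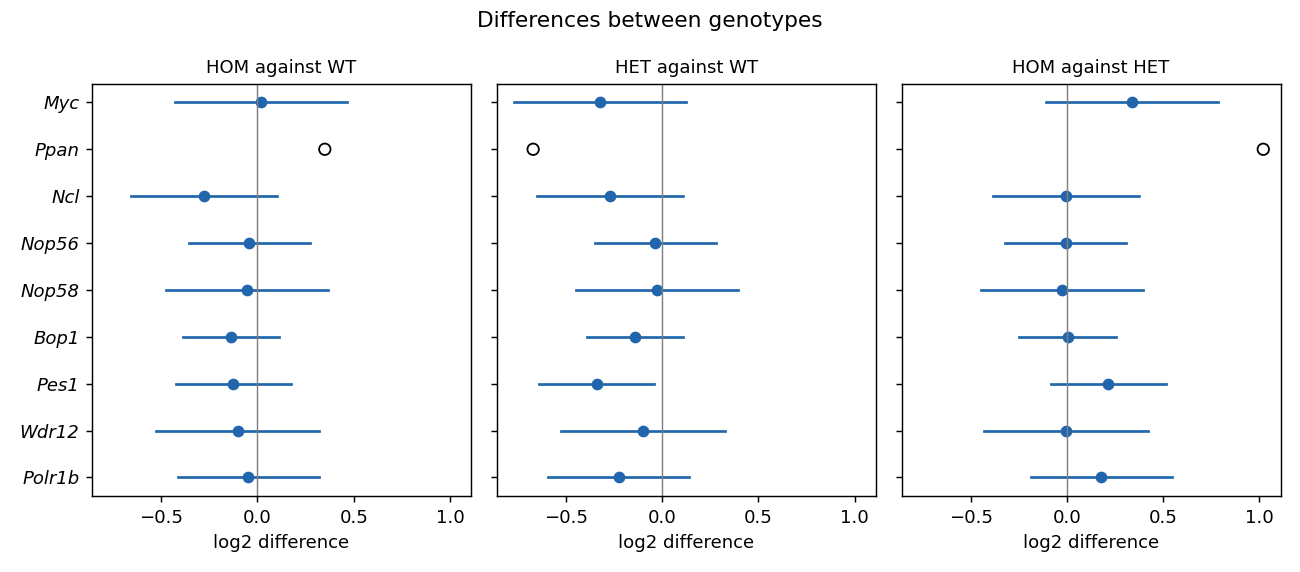
Log2 difference between genotypes (horizontal axis) for each gene, in HOM against WT, HET against WT and HOM against HET; bars are 95% limma intervals, and Ppan is an open circle without one. Of the other 8 genes, Pes1 in HET against WT, at -0.34, is the one whose interval does not reach 0, before adjustment over all genes.

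Ppan, the Peter Pan homolog, is a nucleolar factor for maturation of the large ribosomal subunit. Its brightest cluster had log2 values of 10.49, 10.68, 10.23, 10.71 and 10.49 in HOM tumors, 9.85, 9.26, 9.49, 9.24 and 9.66 in HET tumors and 10.32, 10.16, 9.69, 10.07 and 10.60 in WT tumors. Every HOM tumor lay above every HET tumor, and WT tumors spanned the gap between them. Means were 10.52 ± 0.19 in HOM, 9.50 ± 0.26 in HET and 10.17 ± 0.33 in WT (SD, n = 5 each). HOM exceeded HET by 1.02, a 2.03-fold difference, and HOM and HET differed from WT in opposite directions, by 0.35 and -0.67. Of all genes tested, 0.611% had every HOM tumor above every HET tumor. Since the gene was listed with these values known, nothing is read from this.

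Without the tumors labelled HOM 5 and WT 5, the Ppan difference was 1.03 in HOM against HET, 0.47 in HOM against WT and -0.56 in HET against WT. Of the markers of other cells 0 were called in HOM against HET, as were 0.0% of all genes tested, so this count does not show alike cell content. The tumor means of each list overlapped. All 20 epithelial markers had a higher group mean in HOM than in HET (median difference 0.80), with tumor means of 10.06 to 10.91 in HOM and 7.64 to 10.96 in HET. The lowest was HET 1, without which 16 of the 20 were higher in HOM (median difference 0.29). All 13 neutrophil markers had a lower group mean in HOM than in HET, with tumor means of 6.77 to 9.22 in HOM and 7.59 to 10.66 in HET. With the epithelial marker mean as a covariate, the Ppan difference of HOM against HET was 1.07, and with the proliferation marker mean it was 1.05. Both values describe a difference known when the gene was listed, and nothing is read from them. The part of epithelial content, proliferation, neutrophils or muscle in the Ppan values was not tested.

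The dimmer of the 2 Ppan clusters gave another picture. Its log2 values were 8.24, 8.47, 8.39, 8.09 and 8.36 in HOM tumors, 8.28, 7.84, 8.26, 7.71 and 8.14 in HET tumors and 8.76, 8.89, 8.20, 8.28 and 7.99 in WT tumors. All 3 groups overlapped, and WT 1 and WT 2 were highest, as for Ncl and Pes1. The difference of this cluster was 0.26 in HOM against HET, -0.11 in HOM against WT and -0.38 in HET against WT. Over the 15 tumors the 2 clusters had r = 0.454 (permutation p = 0.0895) and rho = 0.343 (permutation p = 0.210), so the genotype pattern of Ppan rests on the brighter one. With the mean of both clusters, HOM exceeded HET by 0.64. RefSeq places 2 small nucleolar RNA genes within Ppan, and which probes of either cluster overlap them is not known here.

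**Figure D3:**
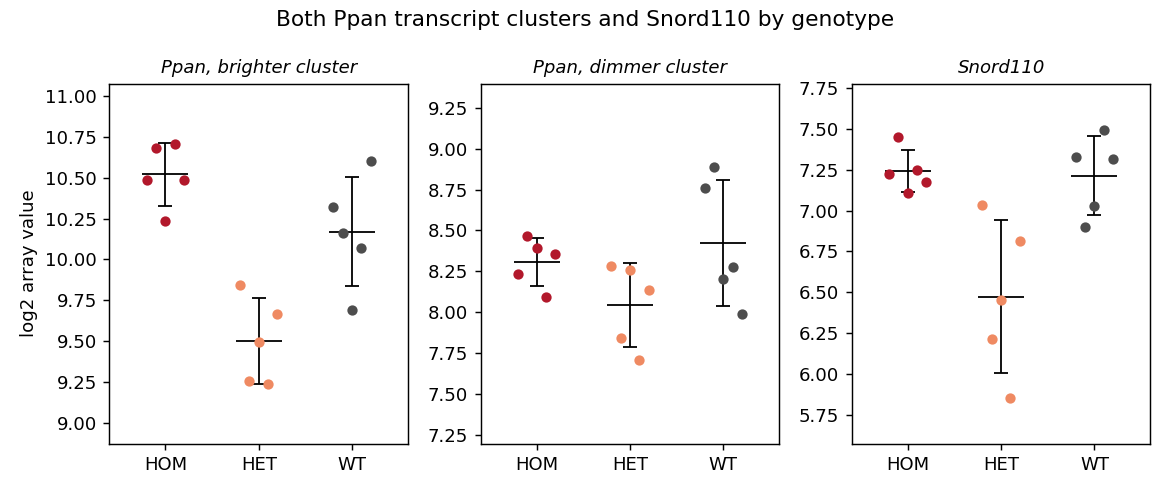
Log2 intensity (vertical axis) of the brighter and the dimmer Ppan cluster and of Snord110, a small nucleolar RNA gene within Nop56, in HOM, HET and WT tumors; points are tumors and bars are means with SD (n = 5 each). HOM tumors lie above HET tumors in the brighter Ppan cluster (means 10.52 and 9.50) and overlap them in the dimmer one (8.31 and 8.05).

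The tumor HET 4 had the lowest value of 15 tumors for all 9 genes and for the dimmer Ppan cluster. A dimmer Nop56 cluster was also lowest in HET 4, at 6.09, while another was lowest in WT 3, at 4.48 against 4.58 in HET 4. Of all 14243 genes, 13.5% were lowest in HET 4. Its values were 9.53 for Myc, 9.24 for Ppan, 10.17 for Ncl, 8.58 for Nop58 and 8.02 for Polr1b. HET 4 was also the lowest tumor for 49 of 91 other ribosome biogenesis genes, 35 of 57 ribosomal protein genes and 11 of 29 other Myc target genes. At the other end, WT 2 was highest for 4 of the 9 genes, WT 1 for 2, WT 4 for 2 and HOM 4 for 1. Of all genes, 5.81% were highest in WT 2, 17.0% in WT 1, 7.80% in WT 4 and 1.82% in HOM 4. WT 1 was also highest for 28 of the 91 other ribosome biogenesis genes and 35 of the 57 ribosomal protein genes.

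HET 4 also had the highest tumor means of the fibroblast, endothelial and macrophage marker lists, but not of the other cell lists. Adipocyte markers were highest in HOM 4, at 9.10 against 8.26 in HET 4. Skeletal muscle markers were highest in HET 3 and neutrophil markers in HET 2. The leukocyte, B and plasma cell, and T and NK cell lists were highest in HET 1. The mean of 13 tested fibroblast markers of 14 listed was 11.54 in HET 4, and the tumor means ranged from 8.19 to 10.31 in HOM, 6.99 to 11.54 in HET and 7.24 to 9.51 in WT. The mean of 12 endothelial markers was 9.98 in HET 4, against 7.56 to 9.37 in HOM, 7.28 to 9.98 in HET and 7.57 to 8.71 in WT. The mean of 12 macrophage markers was 10.43 in HET 4, also the highest of 15, and that of 20 epithelial markers was 9.40, with only HET 1 lower. The part of these cells in the low values of HET 4 was not tested. Without HET 4, the differences of HET against WT were -0.20 for Myc, -0.60 for Ppan, -0.19 for Ncl, 0.05 for Nop56, 0.13 for Nop58, -0.09 for Bop1, -0.26 for Pes1, 0.02 for Wdr12 and -0.11 for Polr1b, so 6 of the 9 remained below 0. In that comparison leaving out HET 4 moved Nop56, Nop58 and Polr1b the most of any tumor. A WT tumor moved the other 6 further: Myc was -0.48 and Ppan -0.79 without WT 3, Ncl -0.39 without WT 5, Bop1 -0.045 and Pes1 -0.22 without WT 1, and Wdr12 0.043 without WT 2.

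**Figure D4:**
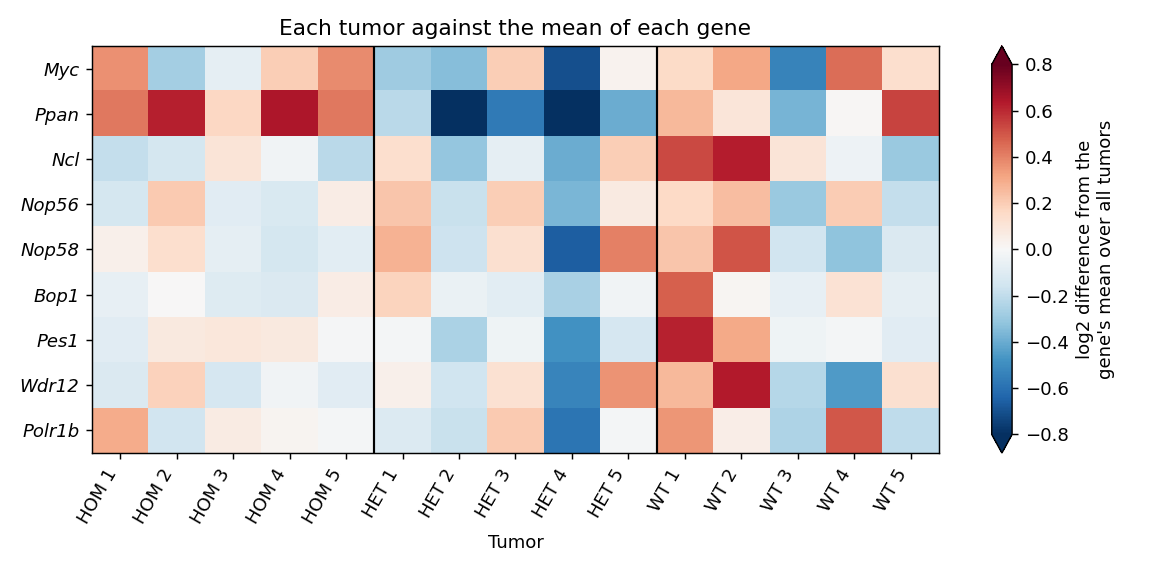
Deviation of each gene (rows) in each tumor (columns; HOM, HET and WT from left to right) from its mean over 15 tumors, in log2 units on a colour scale clipped at both ends. HET 4 is the lowest tumor in all 9 rows, and WT 1 and WT 2 are the highest for Ncl and Pes1.

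Whether the ribosome biogenesis genes followed Myc from tumor to tumor was asked over all 15 tumors, in 8 relations. Polr1b was the 1 gene that passed, with r = 0.813 (permutation p = 0.00018, adjusted p = 0.00144) and rho = 0.782 (permutation p = 0.00088, adjusted p = 0.00704). Without HET 4 and WT 3, the 2 tumors farthest from the median of Myc, the r of Polr1b was 0.669, and with genotype means removed it was 0.785. Ppan had r = 0.561 and rho = 0.432 and did not pass. Its r was 0.339 without those 2 tumors and 0.413 with genotype means removed. The r and rho of Ppan over all 15 tumors include the genotype differences known when it was listed, so no p is given for it. Nop56 had r = 0.510 (adjusted p = 0.142 by permutation) and Pes1 r = 0.466 (adjusted p = 0.155 by permutation), which came to 0.082 and 0.217 without the same 2 tumors. For Nop58, Wdr12, Bop1 and Ncl, r lay between 0.260 and 0.353 and did not pass. The r of Myc with Nop58, 0.353, was 0.019 without HET 4, and that with Wdr12, 0.335, was 0.567 without WT 4.

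The genes most like Myc over the 15 tumors, by Pearson r among all genes tested, were Mtss1 at 0.862, H2al2a at 0.845, Sox8 at 0.824, Seh1l at 0.820 and Polr1b at 0.813. Polr1b thus ranked 5 among all tested genes other than Myc. The lowest r were those of Eea1 at -0.849, Mfsd8 at -0.839 and 2310001H17Rik at -0.838. Over all genes, r with Myc ran from -0.496 at the 5th percentile to 0.549 at the 95th, so the 0.561 of Ppan lay just above the upper of these and the r of Nop56, Pes1, Nop58, Wdr12, Bop1 and Ncl lay between them. These r are descriptions with no test.

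The ribosome biogenesis genes also varied with each other. Among the 21 pairs of Ncl, Nop56, Nop58, Bop1, Pes1, Wdr12 and Polr1b, every r was above 0, from 0.186 to 0.913 with a median of 0.590, beside a median of 0.410 for the 8 relations with Myc, and the difference of these medians was not tested. Of 28 pairs that also include Ppan, 7 passed at an adjusted p below 0.05 by permutation, and none of these 7 held Ppan, whose r with the others lay between 0.121 and 0.531. The closest pair was Nop58 with Wdr12, at r = 0.913 (permutation p = 1e-05, the smallest the permutations can give, adjusted p = 0.00028) and rho = 0.871. Without the 2 tumors farthest from the median, r was 0.841, and with genotype means removed 0.917. Nop58 and Wdr12 both lie on chromosome 1 with 3 protein-coding genes between them in RefSeq. Of these, 2 were tested: Bmpr2, a BMP receptor, had r = -0.279 with Nop58 and -0.265 with Wdr12, and Fam117b had 0.016 and -0.073.

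The other pairs that passed were Ncl with Pes1 (r = 0.798), Bop1 with Pes1 (0.763), Ncl with Nop58 (0.726), Nop56 with Nop58 (0.690), Ncl with Wdr12 (0.667) and Nop56 with Bop1 (0.615), with adjusted p between 0.00434 and 0.0322 by permutation. By rank, 3 of the 7 pairs passed. They were Nop58 with Wdr12, Ncl with Nop58 (rho = 0.693) and Nop56 with Nop58, the paired proteins of the box C/D particle (rho = 0.700, both with adjusted p = 0.0483 by permutation). The rank correlation of Bop1 with Pes1 was 0.375 (adjusted p = 0.263 by permutation), and WT 1 was the highest tumor for both, at 9.66 for Bop1 and 10.34 for Pes1. Without the 2 tumors farthest from the median of the first gene named, r was 0.567 for Ncl with Pes1, 0.555 for Bop1 with Pes1, 0.619 for Ncl with Nop58, 0.533 for Nop56 with Nop58, 0.374 for Ncl with Wdr12 and 0.512 for Nop56 with Bop1. The values of Ncl with Wdr12 thus rest most on those 2 tumors.

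**Figure D5:**
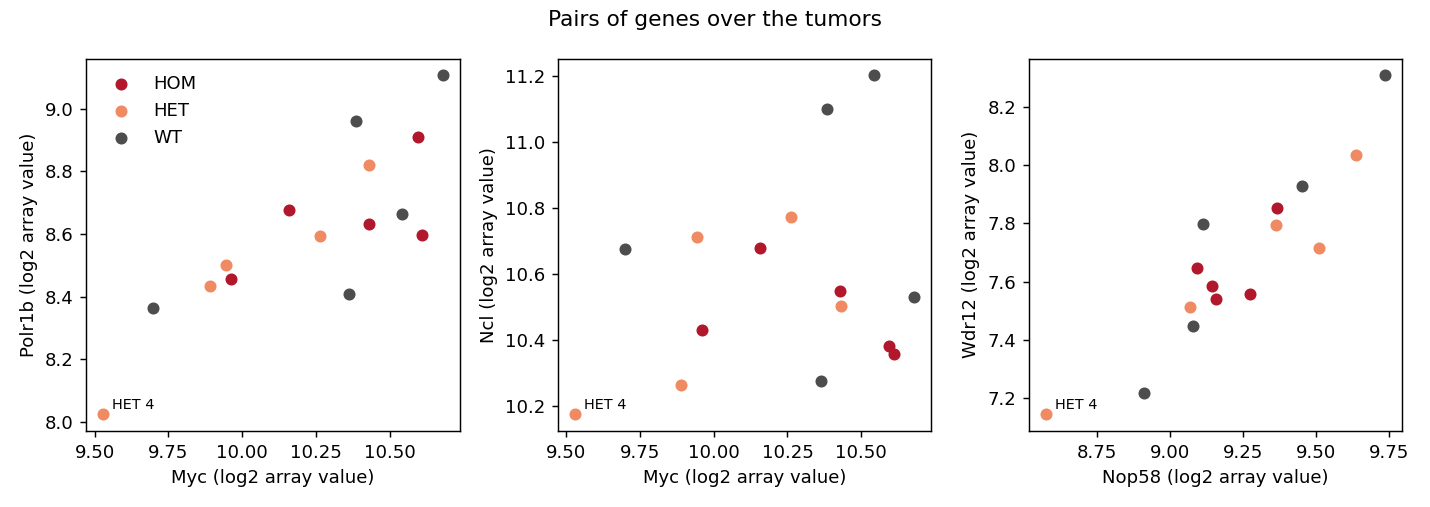
Log2 intensities of 3 pairs of genes over the 15 tumors: Polr1b against Myc (r = 0.813), Ncl against Myc (r = 0.260) and Wdr12 against Nop58 (r = 0.913); points are tumors, coloured by HOM, HET and WT. HET 4 lies at the low end of each axis.

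The genes most like the brighter Ppan cluster by Pearson r were Snord61 at 0.877, Zfp24 at 0.862, Snord110 at 0.854, Rbm22 at 0.840 and Ggact at 0.828. The lowest were Wwp1 at -0.781, Wnk1 at -0.780 and Reps1 at -0.745, against a 5th percentile of -0.458 and a 95th percentile of 0.529 over all genes. None of the other ribosome biogenesis genes listed here was near the top: the closest were Myc at 0.561 and Pes1 at 0.531. Snord61 and Snord110 are box C/D small nucleolar RNA genes. Snord110 averaged 7.24 ± 0.13 in HOM, 6.47 ± 0.47 in HET and 7.21 ± 0.24 in WT tumors (SD, n = 5 each), with its lowest value, 5.86, above all array medians. Snord61 averaged 5.83 ± 0.36 in HOM, 4.70 ± 0.16 in HET and 5.43 ± 0.54 in WT tumors (SD, n = 5 each), and its values, from 4.55 to 6.38, lay on both sides of the array medians. With the dimmer Ppan cluster, r was 0.539 for Snord110 and 0.142 for Snord61.

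The wider machinery was read from lists chosen by function, with the same fit. Of 91 tested genes of RNA polymerase I, nucleolar particles and the assembly of both subunits, 0 were called by limma in HOM against WT, 0 in HET against WT and 0 in HOM against HET, and 1, 3 and 2 had an unadjusted p below 0.05. Over all genes tested the shares with such a p were 1.7%, 13.4% and 7.93%. In HET against WT 28 were higher and 63 lower, with a median of -0.08 against -0.03 over all genes, and without HET 4 the split was 45 and 46. In HOM against WT 29 were higher and 62 lower (median -0.03), a split that was 39 and 52 after renewed quantile normalization and 18 and 73 after median centring, and that turned to 51 and 40 without WT 1 and 47 and 44 without WT 2. In HOM against HET 57 were higher and 34 lower (median 0.04), and the split turned to 37 and 54 without HET 4 and 43 and 48 without HET 2. Without HOM 5 and WT 5, the 91 genes split 35 and 56 in HOM against WT, 24 and 67 in HET against WT and 60 and 31 in HOM against HET.

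Within RNA polymerase I and its factors, 3 of 14 tested genes were higher and 11 lower in HET against WT, and 10 were higher and 4 lower in HOM against HET. Taf1d, a subunit of the polymerase I promoter factor SL1, averaged 10.69 ± 0.83 in HET and 11.11 ± 0.97 in WT tumors (SD, n = 5 each; limma adjusted p = 0.725). Among large subunit assembly factors, 6 of 32 were higher and 26 lower in HET against WT, a split of 15 and 17 without HET 4. Ddx56, a DEAD-box helicase, averaged 9.45 ± 0.26 in HET and 9.85 ± 0.39 in WT (limma adjusted p = 0.376), and Brix1 9.46 ± 0.35 in HET and 9.79 ± 0.31 in WT (limma adjusted p = 0.445). Rpf2, which helps dock the 5S particle, averaged 9.10 ± 0.13 in HOM and 9.43 ± 0.14 in HET without overlap (limma adjusted p = 0.659), where 0.414% of all genes had every HOM tumor below every HET tumor.

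The small subunit processome, which processes the RNA of the small subunit, had 16 of 35 genes higher and 19 lower in HET against WT. This split depended on the setting: it was 19 and 16 after renewed quantile normalization, 10 and 25 after median centring, 20 and 15 without HET 4, 22 and 13 without WT 2 and 9 and 26 without WT 4. The 2 lowest differences were those of Rcl1, at -0.61 (limma adjusted p = 0.320), and Tbl3, at -0.38 (limma adjusted p = 0.317). The highest was that of Ltv1, at 0.59, with an SD of 0.97 in HET against 0.13 in WT. Among the 10 other nucleolar particle genes tested, Nhp2 had the lowest difference of HET against WT, at -0.30 (limma adjusted p = 0.578), and in HOM against WT it was Naf1, a factor for assembly of box H/ACA particles, at -0.32.

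Ribosomal protein genes were mostly lower in value in HET than in WT tumors, with 6 of 57 tested genes higher and 51 lower (median -0.20, all genes -0.03). In HOM against HET 49 were higher and 8 lower (median 0.18), and in HOM against WT 29 were higher and 28 lower. Without HET 4 the first 2 splits were 9 and 48 (median -0.13) and 49 and 8 (median 0.13). Without WT 1 the split of HET against WT was 12 and 45 and its median -0.096, the largest move of any tumor. The same 2 splits without HOM 5 and WT 5 were 8 and 49 (median -0.24) and 48 and 9 (median 0.16). Neither split turned under renewed quantile normalization or median centring. The split of HOM against WT was 14 and 43 after median centring, 17 and 40 without HOM 2, 16 and 41 without HOM 5 and WT 5, and 51 and 6 without WT 1. Of the 57 genes 0 were called by limma in each of the 3 comparisons, and 0, 4 and 6 had an unadjusted p below 0.05 in HOM against WT, HET against WT and HOM against HET. Over all genes tested the shares were 1.7%, 13.4% and 7.93%. The lowest differences of HET against WT were those of Rpl3, at -0.44 (limma adjusted p = 0.422), and Rps19, at -0.44 (limma adjusted p = 0.415). Of 80 listed genes, 61 had a cluster of their own, and ribosomal protein genes have many processed copies whose signal the array may share. In HET against WT all 13 neutrophil markers were higher (median difference 2.22, 12 with an unadjusted limma p below 0.05). Of 20 epithelial markers, 19 were lower (median -0.73, 3 with such a p), and 13 without HET 1 (median -0.27). In both lists 0 were called. The part of cell content in the ribosomal protein values was not tested.

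The Myc network, its partners and antagonists at the E-box, held values on both sides of 0. Mxd1, a Max partner that represses Myc targets, averaged 11.10 ± 0.68 in HET and 10.17 ± 0.37 in WT (SD, n = 5 each; difference 0.93, limma adjusted p = 0.242). Mxd4, a related repressor, averaged 8.46 ± 0.48 in HET and 9.10 ± 0.35 in WT (difference -0.64, limma adjusted p = 0.283). The differences without HOM 5 and WT 5 were 0.95 for Mxd1 and -0.65 for Mxd4. Neither passed the test, and of the 11 tested genes 4 were higher and 7 lower in HET against WT.

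Among other known Myc targets, the outermost differences passed 1 on the log2 scale and did not pass the test. Odc1, the rate-limiting enzyme of polyamine synthesis, averaged 10.33 ± 0.996 in HET and 9.11 ± 0.39 in WT tumors without overlap (difference 1.22, limma adjusted p = 0.242), where 0.534% of all genes had every HET tumor above every WT tumor. Slc7a5, a transporter of large neutral amino acids, averaged 11.28 ± 0.79 in HET and 12.40 ± 0.15 in WT (difference -1.12, limma adjusted p = 0.212). Ccnd2, a D-type cyclin, averaged 9.34 ± 0.58 in HOM and 10.33 ± 0.77 in WT (difference -0.99, not called), and Mthfd1l, a mitochondrial folate enzyme, averaged 8.01 ± 0.26 in HOM and 8.78 ± 0.45 in HET without overlap (difference -0.78, limma adjusted p = 0.589). Without HOM 5 and WT 5, Odc1 had 1.24 and Slc7a5 -1.16 in HET against WT, Ccnd2 -1.11 in HOM against WT and Mthfd1l -0.83 in HOM against HET. Of 29 tested genes 9 were higher and 20 lower in HET against WT, and 0 were called by limma in each of the 3 comparisons, where 1 in HOM against WT, 4 in HET against WT and 3 in HOM against HET had an unadjusted p below 0.05. Over all genes tested the shares with such a p were 1.7%, 13.4% and 7.93% in the same order.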

How the data were processed

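Total RNA from 15 tumors was labelled and hybridised to 1 array each. The authors deposited log2 intensities for 41345 transcript clusters. Per the submitters' processing notes they used Affymetrix Expression Console and Transcriptome Analysis Console. The sources used here give no versions, no background correction, no normalization method and no genome build for the clusters. Of the clusters, 23521 carry 1 gene symbol, 1814 several and 16010 none in the platform annotation. The brightest cluster with 1 symbol stood for each of 22180 genes, and 14243 genes above the array median on at least 5 arrays were tested. Filtering this way leaves genes that are low in all but 1 genotype in the test.

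All 3 genotypes entered 1 limma fit (limma 3.58.1, R 4.3.3) with 12 residual degrees of freedom and no covariate, two-sided, with Benjamini-Hochberg adjustment over all genes tested and a threshold of 0.05. Correlations used two-sided permutation tests with 100000 permutations, adjusted over the 8 relations with Myc and over the 28 other pairs. A single-gene check of Ctnnb1 used exact permutation tests. The fit was tested on simulated data. The number of arrays limits the precision, no detection call was used, and no 2 arrays were identical. No batch or scan date was used, and tumors were numbered by accession, so numbers link no tumors across genotypes.

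The genes, the lists and their markers were chosen with earlier results of these data known. Named genes are the measured listed genes, the 2 highest and the 2 lowest differences of each list in each comparison, from which the text takes examples, and the 5 highest and 3 lowest r with Ppan and with Myc. Ctnnb1 and Erbb2 are named as the targeted gene and the driver. Small nucleolar RNA genes beyond this rule were chosen after their values were seen. Alternatives were other filters on dim genes, another quantile normalization, centring on array medians, averaging a gene's clusters, a trended and robust eBayes, weighting of arrays, fitting only the 2 genotypes compared, marker covariates and left-out tumors. The lists without HOM 5 and WT 5, and all lists with 1 tumor left out, were added after the data were seen. Promoters came from RefSeq, build GRCm38.p6, which held 7 of the 10 genes. Promoters of Myc, Bop1 and Fbl were not used here.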

Additional observations from a re-analysis of the deposited data

Results flagged for a closer look

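Among 36 groups of 5 tumors examined for a sample far from the others, 1 stood out, where chance gives about 1 in 20. In HET tumors, a dimmer Nop56 cluster had a log2 value of 6.03 in HET 1, and the gap to the nearest other HET tumor was 0.741 of the group's range. This cluster was not the one used for Nop56, which averaged 10.45 in HET tumors.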

How the results depend on the processing

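Under all 27 alternatives, 0 of the 8 genes without Ppan and 0 of the 91 wider ribosome biogenesis genes were called in each of the 3 comparisons. Over all genes, 2 were called in HET against WT, 49 without HET 3 and 18 without HET 5. The number of genes passing with Myc was 1 in the 20 other correlation settings, Polr1b each time, and 1 to 2 over the settings that leave out 1 tumor: without HOM 2, Ppan and Polr1b passed. Since the genotype values of Ppan were known when it was listed, nothing is read from its pass without HOM 2. A difference changed sign 24 times outside the settings that leave out 1 tumor and 46 times in them, each time for a gene whose main value lay between -0.10 and 0.02. None of these had been called, and the cause was not tested. With the mean of all clusters, Nop56 had 0.075 in HOM against WT and 0.24 in HOM against HET, and Ppan 0.64 in HOM against HET. Median centring gave -0.027 for Myc in HOM against WT and -0.014 for Bop1 in HOM against HET, and renewed quantile normalization gave 0.00074 for Ncl there. Array weights gave 0.057 for Polr1b in HOM against WT and, in HOM against HET, 0.051 for Ncl, 0.0082 for Nop58, -0.0062 for Bop1 and 0.013 for Wdr12. The epithelial covariate gave 0.043 for Ncl and 0.033 for Nop56 in HOM against HET, and the proliferation covariate 0.053 for Ncl, 0.050 for Nop56, 0.041 for Nop58 and 0.055 for Wdr12. Without HOM 5 and WT 5, Myc had -0.041 in HOM against WT, and in HOM against HET Ncl had 0.026, Bop1 -0.022 and Wdr12 0.0094. Without HET 1 and HET 3, Ncl had 0.076, Nop56 0.14, Nop58 0.11 and Wdr12 0.073 in HOM against HET. Leaving out 1 tumor at a time gave, in HOM against WT, -0.14 to 0.11 for Myc, -0.12 to 0.014 for Nop56, -0.14 to 0.067 for Nop58, -0.23 to 0.039 for Wdr12 and -0.13 to 0.055 for Polr1b. In HET against WT it gave -0.12 to 0.053 for Nop56, -0.13 to 0.13 for Nop58 and -0.23 to 0.043 for Wdr12. In HOM against HET it gave -0.083 to 0.067 for Ncl, -0.095 to 0.051 for Nop56, -0.19 to 0.078 for Nop58, -0.048 to 0.061 for Bop1 and -0.13 to 0.094 for Wdr12, and 0.95 to 1.11 for Ppan. No paired analysis was possible because tumors were numbered by accession, which links none across genotypes. Signal over background could not be judged without scanner files.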

Other observations

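Small nucleolar RNA genes, the partners of the box C/D and box H/ACA proteins, mostly had lower values in HET tumors than in HOM and WT tumors. They were chosen after 2 of them headed the genes most like Ppan, so the counts are a description with no list test. Of 65 tested, 6 were higher and 59 lower in HET against WT (median difference -0.41, all genes -0.03), 61 were higher and 4 lower in HOM against HET (median 0.53, all genes 0.01), and 45 were higher and 20 lower in HOM against WT (median 0.09). In limma, 0 were called in each comparison, and 15, 17 and 0 had an unadjusted p below 0.05 in that order. Over all genes tested the shares with such a p were 13.4%, 7.93% and 1.7%. The mean over the 65 genes was 8.40 ± 0.44 in HOM, 7.86 ± 0.38 in HET and 8.31 ± 0.33 in WT tumors (SD, n = 5 each), with the lowest tumor, 7.31, in HET 4. Without HET 4 the splits were 9 and 56 in HET against WT (median -0.27) and 61 and 4 in HOM against HET (median 0.37), and neither turned under renewed quantile normalization or median centring. The split of HOM against WT was 29 and 36 without HOM 2. Without HOM 5 and WT 5 the splits were 5 and 60 in HET against WT, 58 and 7 in HOM against HET and 36 and 29 in HOM against WT. Neutrophil and epithelial markers also differed in value between HET tumors and the others, as given above, and their part here was not tested.

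Several small nucleolar RNA genes lie within the span of the listed genes in RefSeq. Snord82, within Ncl, averaged 11.87 ± 0.16 in HOM, 11.34 ± 0.27 in HET and 11.75 ± 0.22 in WT (SD, n = 5 each), while Ncl itself averaged 10.48 in HOM, 10.48 in HET and 10.76 in WT. The r of Snord82 was 0.456 with Ncl and 0.801 with the brighter Ppan cluster. Snord110, within Nop56, had r = 0.393 with Nop56 and 0.854 with the brighter Ppan cluster. Snora75, also within Ncl, averaged 10.23 ± 1.49 in HOM, 8.99 ± 0.69 in HET and 9.25 ± 0.88 in WT (SD, n = 5 each). Its r was 0.193 with Ncl and 0.508 with the brighter Ppan cluster. Within Nop58, Snord11 had r = 0.541 with Nop58 and 0.620 with that cluster. Snord70, also within Nop58 and not among the genes tested, had 0.443 and 0.748. With the brighter Ppan cluster the r of the 65 genes ran from -0.42 to 0.88. Their median was 0.494, against 0.040 over all genes tested. These genes were chosen because Snord61 and Snord110 had some of the highest r with this same cluster, so nothing is read from that gap. With the dimmer Ppan cluster the r of the 65 genes ran from -0.40 to 0.83, with a median of 0.631. No median over all genes was computed for the dimmer cluster.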
